A study of Mus musculus with 11 samples.

Results

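Genes of the blood vessel wall were followed in mouse hippocampus, the tissue in which a deletion of the noncoding 1b interval of Scn1a had been profiled by RNA-seq. The 10 genes were given as a list and were found by their symbol in both deposited count tables, of 24391 and 24015 genes. They are 7 endothelial genes (Cldn5, Pecam1, Flt1, Kdr, Slc2a1, Abcb1a and Tek) and 3 mural genes, which mark pericytes and vascular smooth muscle (Pdgfrb, Rgs5 and Vtn). The deletion was made with Cas9 in oocytes and is carried in every cell, on a C57BL/6N background, and WT mice of the same strain were the controls; no other allele or agent was present. The samples were hippocampus dissected from 11 mice at postnatal day 32, sequenced in 2 rounds. The heterozygous round held 3 WT males against 4 1b+/- mice (HT in the labels, 3 males and 1 female) and used longer paired-end reads. The homozygous round held 2 WT females against 2 1b-/- mice (KO in the labels, 1 male and 1 female) and used short single-end reads. Each mutant group was therefore set only against WT mice sequenced beside it, and changes were then compared between rounds.

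In the brain, endothelial cells form a sealed wall, the blood-brain barrier. Tight junctions, to which claudin-5 (Cldn5) belongs, close the gaps between them, while carriers such as the glucose transporter of Slc2a1 and efflux pumps such as P-glycoprotein, from Abcb1a, set what crosses. VEGF acts on endothelial cells through the receptors made by Kdr and Flt1, and the angiopoietins act through the receptor made by Tek. Endothelial PDGF-B recruits pericytes through Pdgfrb, and pericytes help to keep the barrier closed.

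Libraries held between 20667122 and 36145161 counts, and the 10 genes took between 0.0337% and 0.0498% of them. The targeted gene was lowest in the mice labelled KO: Scn1a averaged 21.5 ± 6.80 CPM (counts scaled to library size) in 1b-/- against 153 ± 27.5 in WT mice (SD, n = 2 and 2), and 97.6 ± 15.5 in 1b+/- against 136 ± 31.0 (n = 4 and 3). CPM here were scaled by TMM within each round. The tissue of the homozygous round was not matched between groups. Summed over 14 striatal marker genes, both WT libraries of that round reached 3735 and 8953 CPM, against 360 to 458 in 1b-/- and 332 to 602 in the heterozygous round. All 14 striatal genes were lower in 1b-/-, 11 of them past the threshold, whereas 7 of 8 dentate granule cell genes were higher. Genotype and the tissue captured cannot be told apart in that round.

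The vascular genes spanned a wide range of levels. Per kilobase of annotated exon, Slc2a1 (34.6 ± 3.4 CPM per kb, SD, n = 3) and Vtn (30.9 ± 1.51) led in heterozygous-round WT mice, and their ranges overlapped. Cldn5 (13.4 ± 1.63) and Rgs5 (12.1 ± 0.535) came next and also overlapped. Abcb1a (5.60 ± 0.691) lay between these and an overlapping run of Pdgfrb (4.38 ± 0.188), Pecam1 (4.10 ± 0.380) and Flt1 (4.08 ± 0.0655). Tek (3.21 ± 0.431) and Kdr (2.14 ± 0.153) were lowest. In the WT mice of the homozygous round Vtn, Slc2a1 and Cldn5 were again the highest, at 38.2 ± 2.73, 33.7 ± 5.40 and 27.3 ± 9.19 CPM per kb (n = 2), and Kdr (3.54 ± 0.732) was again the lowest. Rgs5, at 6.27 ± 0.816, fell among Pdgfrb, Pecam1, Abcb1a and Flt1 there. Absolute levels therefore differed between rounds in a way that depended on the gene, and rounds differ in read type, so that they were not compared by a test.

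RefSeq start sites place the regions before Flt1, Kdr and Tek, the VEGF and angiopoietin receptors, whose 1b-/- values lay under both WT values without passing the test, and before Slc2a1, whose 1b-/- values lay between the WT values. The 250 bases before the start were taken from a RefSeq table built on GRCm38.p6, which held 8 of the 10 genes, and each was found once on its chromosome in mm9, the build of the counts. They lie at chr5:148537588-148537837 for Flt1 and chr5:76374481-76374730 for Kdr, both on the minus strand, and at chr4:94405730-94405979 for Tek and chr4:118781100-118781349 for Slc2a1, both on the plus strand. Capitals mark GGAA on either strand (TTCC on the strand shown), the core that ETS factors, regulators of many endothelial genes, bind.

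Flt1: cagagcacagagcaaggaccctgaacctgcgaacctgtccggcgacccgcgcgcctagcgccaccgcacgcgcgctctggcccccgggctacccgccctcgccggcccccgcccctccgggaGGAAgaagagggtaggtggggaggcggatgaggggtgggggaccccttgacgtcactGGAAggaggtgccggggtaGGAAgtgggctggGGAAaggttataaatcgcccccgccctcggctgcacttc 
Kdr: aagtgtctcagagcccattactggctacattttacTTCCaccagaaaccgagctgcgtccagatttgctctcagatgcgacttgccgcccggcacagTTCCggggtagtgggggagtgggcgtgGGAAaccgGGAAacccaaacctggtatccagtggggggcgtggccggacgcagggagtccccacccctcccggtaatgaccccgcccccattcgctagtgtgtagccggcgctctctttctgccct 
Tek: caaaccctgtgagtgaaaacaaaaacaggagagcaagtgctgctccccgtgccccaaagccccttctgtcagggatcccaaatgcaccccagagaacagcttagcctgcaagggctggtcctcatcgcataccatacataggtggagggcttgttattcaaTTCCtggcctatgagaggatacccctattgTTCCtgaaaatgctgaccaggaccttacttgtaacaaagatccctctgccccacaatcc 
Slc2a1: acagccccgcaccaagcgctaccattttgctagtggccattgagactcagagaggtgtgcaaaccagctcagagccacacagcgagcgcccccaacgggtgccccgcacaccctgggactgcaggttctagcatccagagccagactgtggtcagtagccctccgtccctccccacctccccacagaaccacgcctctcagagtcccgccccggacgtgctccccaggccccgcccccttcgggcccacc

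Flt1 and Kdr each held 4 copies, a number reached by 33.4% of the 32851 windows in the table. Tek held 2, reached by 76.8%, and Slc2a1 held none. The members' windows not shown held 5 for Abcb1a, 4 for Vtn, 3 for Rgs5 and 0 for Cldn5, so the number did not follow the change in 1b-/- mice. At least 1 copy was present in 93.4% of all windows, so these letters do not set the receptor genes apart.

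In 1b+/- mice none of the 10 genes passed the test. All 10 passed the filter on low counts, which required at least 1 CPM in at least 1 library of the round, and log2 fold changes ran from -0.25 to 0.20. The quasi-likelihood test of edgeR, its p-values adjusted by Benjamini-Hochberg across 14630 genes, called 0 of them at 0.05, as it called 0% of all genes. Scn1a, the targeted gene, was not called by that test either (log2 fold change -0.47, 95% interval -0.82 to -0.13, adjusted p 0.303). The lack of calls therefore does not show that the 10 genes were unchanged in 1b+/- mice. DESeq2 called 0 of the 10 and 245 genes in all. By the main test 4 were lower and 6 higher. For 1 member, Slc2a1, the unadjusted p was under 0.05, against 11.3% of all genes. No member had groups that did not overlap, against 10.9% of all genes.

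Slc2a1, the glucose carrier of the barrier, which glia also express, was the member nearest to a change. It measured 106, 102 and 87.9 CPM in WT and 80.6, 95.4, 86.6 and 69.7 in 1b+/- mice. The lowest WT mouse lay within the 1b+/- range, and the lowest value belonged to the only female. The log2 fold change was -0.25 (95% interval -0.48 to -0.02) with an adjusted p of 0.396, and the exact two-sided permutation p over mice was 0.114, where 0.0286 is the smallest that 4 against 3 can give.

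The growth factor receptors lay slightly higher in 1b+/- without passing the test. Flt1, the receptor that binds VEGF and can hold it away from Kdr, measured 48.0, 46.5 and 47.3 CPM in WT and 52.9, 55.9, 50.6 and 47.2 in 1b+/-. The log2 fold change was 0.13 (95% interval 0.00 to 0.26, adjusted p 0.448). Kdr measured 16.7, 14.5 and 15.6 against 15.2, 16, 17.7 and 20.1 CPM, and Tek 17.2, 13.1 and 15.1 against 17.8, 15, 15.5 and 18.1. For Kdr and Tek the groups overlapped broadly, with adjusted p values of 0.632 and 0.689. Pdgfrb, the PDGF receptor of pericytes, had the highest log2 fold change of the 10, 0.20 (95% interval -0.02 to 0.42, adjusted p 0.469).

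The remaining genes differed less. Cldn5 averaged 20.1 ± 1.22 CPM in 1b+/- and 18.9 ± 2.30 in WT (SD, n = 4 and 3). Pecam1, an adhesion molecule at endothelial contacts, averaged 17.3 ± 0.835 against 17.7 ± 1.64. Abcb1a averaged 31.5 ± 0.735 against 30.7 ± 3.78. Its reads cannot be separated with certainty from those of its near copy Abcb1b. For the mural genes Rgs5, a G protein signalling regulator enriched in pericytes, the means were 52.1 ± 2.16 and 55.0 ± 2.45, and for Vtn, which encodes vitronectin, 59.4 ± 3.51 and 62.8 ± 3.06.

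**Figure D1:**
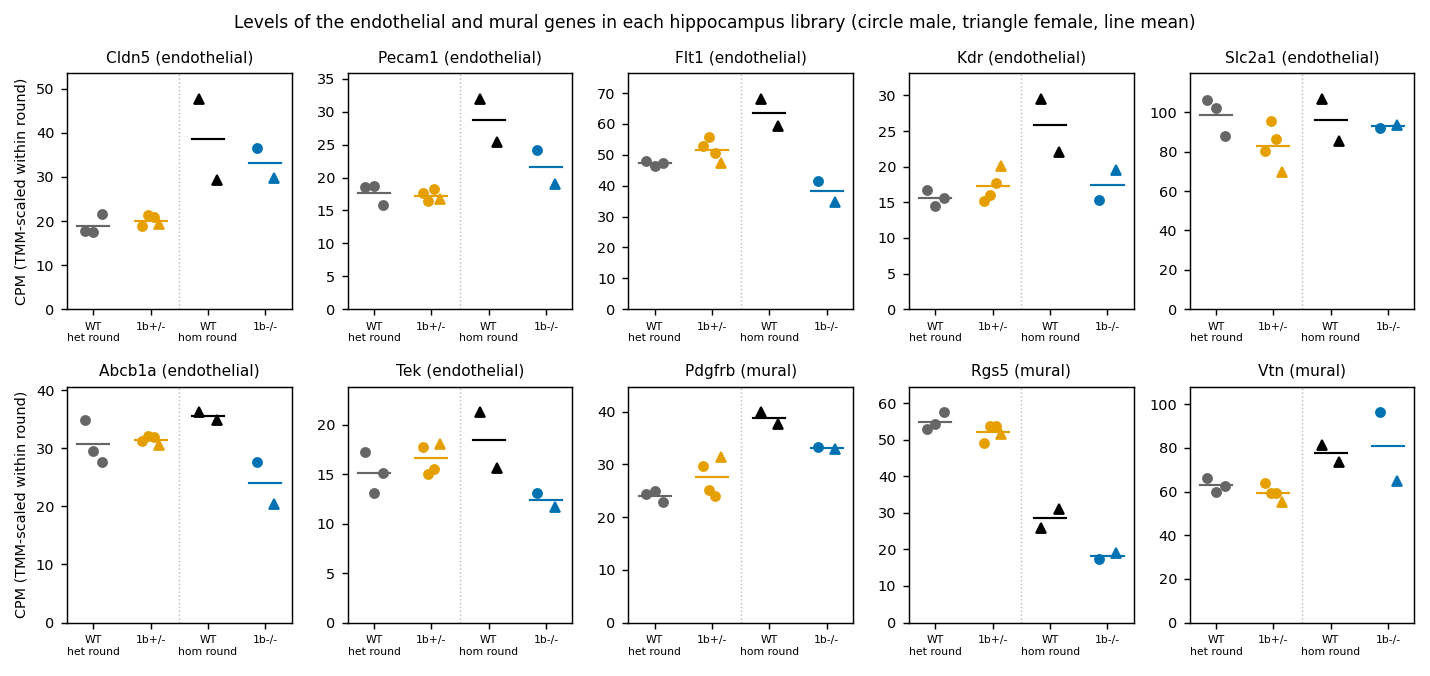
Level of each gene in each of the 11 libraries, in CPM scaled within a round (y axes start at 0), for WT and 1b+/- mice of the heterozygous round and WT and 1b-/- mice of the homozygous round. Circles are males, triangles females and lines group means; Flt1 lies at 34.9 and 41.4 in 1b-/- against 59.2 and 68.2 in WT, while the 1b+/- and WT values of the heterozygous round overlap for each gene.

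In 1b-/- mice, 9 of the 10 genes had lower means than in WT and Vtn had a higher one, but none passed the quasi-likelihood test. With 0 of 10 called, against 3.58% of 14838 genes, the adjusted p values ran from 0.0652 for Flt1 to 0.884 for Vtn. Unadjusted, 5 members were lower with a p under 0.05 (Flt1, Kdr, Abcb1a, Tek and Rgs5), against 12.8% of all genes in that direction. The likelihood ratio test called Flt1, and DESeq2 called Flt1 and Rgs5. For 7 members both 1b-/- values lay under both WT values, as they did for 30.2% of all genes. The median log2 fold change was -0.56 for the endothelial and -0.23 for the mural genes, against a median of 0.00 over all genes tested. In bulk tissue, fewer endothelial cells and less RNA per endothelial cell cannot be told apart. With 2 against 2 mice an exact permutation test cannot give a p below 0.333.

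Among the receptors, Flt1 had the largest difference. It measured 68.2 and 59.2 CPM in WT and 41.4 and 34.9 in 1b-/- mice, with no overlap. The 1b-/- mean was 59.9% of the WT mean, a log2 fold change of -0.74 ± 0.15 (SE, 95% interval -1.12 to -0.36, adjusted p 0.0652). Kdr measured 29.6 and 22.0 CPM in WT against 15.4 and 19.5, a log2 fold change of -0.56 ± 0.22 (adjusted p 0.185). The gap between the groups was small beside the spread between the WT mice. Tek measured 21.3 and 15.7 in WT against 13.1 and 11.7, a log2 fold change of -0.58 ± 0.21 (adjusted p 0.165), and here too WT replicate 1 was the highest library.

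Of the barrier genes, Abcb1a was the one whose groups lay furthest apart. It measured 36.3 and 34.9 CPM in WT and 27.7 and 20.5 in 1b-/-, which left the 1b-/- mean at 67.7% of WT (log2 fold change -0.56 ± 0.18, adjusted p 0.137). Its near copy Abcb1b was much lower, averaging 3.81 CPM in WT and 3.52 in 1b-/- mice. Slc2a1 measured 107 and 85.2 against 92.2 and 93.7, so that both 1b-/- values lay between the WT values, and its log2 fold change was -0.05 (95% interval -0.42 to 0.33). Cldn5 measured 47.8 and 29.4 in WT against 36.6 and 29.7, and the spread between the WT mice exceeded the difference between the means (log2 fold change -0.22, 95% interval -0.88 to 0.44). Pecam1 measured 32 and 25.4 against 24.2 and 19.0, without overlap, at a log2 fold change of -0.41 ± 0.20 (adjusted p 0.257).

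The mural genes diverged. Rgs5 measured 25.9 and 31.2 CPM in WT and 17.3 and 19.0 in 1b-/-, or 63.7% of the WT mean (log2 fold change -0.65 ± 0.16, adjusted p 0.0915). Pdgfrb measured 40.0 and 37.7 against 33.3 and 33.0, close within each group, with a log2 fold change of -0.23 ± 0.12 (adjusted p 0.281). Vtn measured 81.4 and 73.5 against 96.5 and 64.8, and the 1b-/- mice lay on either side of both WT mice.

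The libraries did not contribute evenly. WT replicate 1, which also carried the most striatal RNA, was the highest of the 4 libraries for 8 of the 10 genes, and 1b-/- replicate 2 was the lowest for 6. The mean log2 level of the endothelial genes was 0.18 above the WT mean in WT replicate 1, 0.18 below it in WT replicate 2, and 0.36 and 0.52 below it in the 1b-/- mice. Without WT replicate 1 the median endothelial change was -0.33. Choroid plexus genes, summed, reached 3622 CPM in WT replicate 2 and 14040 in 1b-/- replicate 2 but 60.6 and 70.7 in their partners. Microglial genes also lay low, 11 of 12 being lower with a median log2 fold change of -0.29 and 761 to 768 CPM in WT against 573 to 686 in 1b-/- mice. The part of any of these in the vascular values was not tested.

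**Figure D2:**
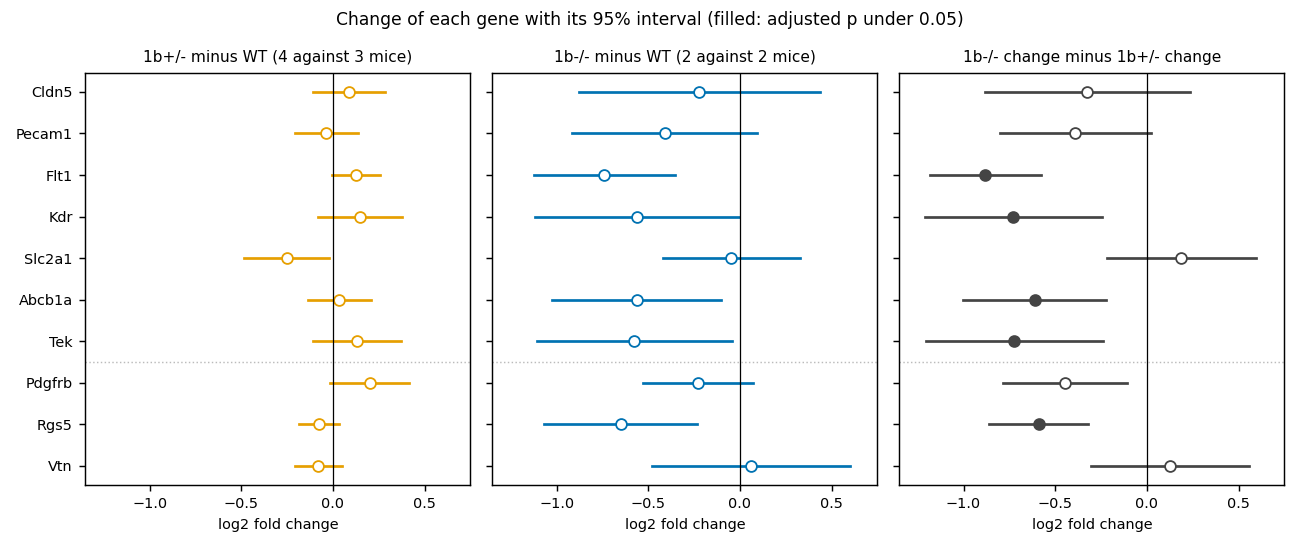
Log2 fold change of each gene (points) with its 95% interval (lines) in 1b+/- mice, in 1b-/- mice, and for the 1b-/- change minus the 1b+/- change. Filled points have an adjusted p under 0.05, which holds for 0, 0 and 5 genes; the 5 filled genes are Flt1, Kdr, Abcb1a, Tek and Rgs5.

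The change in 1b-/- mice lay below that in 1b+/- mice for 8 of the 10 genes, and for 5 the difference passed the test: Flt1, Kdr, Abcb1a, Tek and Rgs5. That fit joined the 11 libraries and tested the 1b-/- minus WT change less the 1b+/- minus WT change, and 13.3% of 14909 genes were called in the same direction. The difference was -0.88 ± 0.14 for Flt1 on the log2 scale (SE, adjusted p 0.00167) and -0.59 ± 0.12 for Rgs5 (adjusted p 0.00614). It was -0.73 ± 0.22 for Kdr, -0.72 ± 0.22 for Tek and -0.61 ± 0.18 for Abcb1a, with adjusted p values of 0.0322, 0.0321 and 0.0276. Pdgfrb, at -0.44 ± 0.15, had an adjusted p of 0.0529. For Pecam1, Cldn5, Slc2a1 and Vtn the intervals of the difference included 0 (-0.80 to 0.02, -0.88 to 0.23, -0.22 to 0.59 and -0.30 to 0.56).

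That fit shares 1 estimate of spread between a tighter and a looser round: the biological coefficient of variation, estimated by round, was 22.9% among homozygous-round mice but 9.13% among the others. When limma's voom weighted the rounds separately, Flt1 and Rgs5 were still called and Kdr, Abcb1a and Tek were not. The same 2 were called without WT replicate 2 or 3 of the heterozygous round, where 3123 and 2870 genes were called in all, against 4041. Leaving out a homozygous-round mouse left 1 in its group, and only the size of the difference is given. With any mouse left out it was -1.02 to -0.75 for Flt1 and -0.71 to -0.45 for Rgs5. It was -0.92 to -0.49 for Kdr, -0.85 to -0.40 for Abcb1a and -0.92 to -0.48 for Tek.

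On a scale common to the 11 libraries, the WT mice of both rounds could be set side by side. Those of the homozygous round lay above the 3 WT mice of the heterozygous round for 6 genes, under them for Rgs5, and overlapped them for 3, where 34.3% of all genes lay above and 33.4% under. The 1b-/- values lay under all 5 WT mice for 4 genes, as they did for 16.1% of all genes. For Flt1 they were 33.8 and 40.9 CPM, against 47.7 to 49.1 and 58.6 to 67.5 in the heterozygous and homozygous WT mice. For Abcb1a they were 19.9 and 27.4 against 28.4 to 35.7 and 34.5 to 35.9, and for Tek 11.4 and 12.9 against 13.5 to 17.6 and 15.5 to 21.1. Rgs5 was also under all 5, but its level in WT mice ranged from 25.6 to 30.8 in the round with short reads and from 54.0 to 59.2 in the other. Kdr, at 15.2 and 19.0 in 1b-/- mice, overlapped the 14.8 to 17.1 of the heterozygous WT mice. These sets were not compared by a test, since they differ in round and read type.

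Endothelial and mural genes kept nearly the same ratio in 1b+/- and WT mice. The mean log2 CPM of the 7 endothelial genes less that of the 3 mural genes was -0.65 ± 0.07 in 1b+/- and -0.68 ± 0.06 in WT mice (SD, n = 4 and 3). In the homozygous round it was -0.38 and -0.39 in the 1b-/- mice, and -0.04 and -0.41 in the WT mice. One WT library thus lay level with the mutants, and the other, replicate 1, stood apart.

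Of the endothelial genes, Flt1, Pecam1, Tek and Abcb1a moved most closely with the others from library to library once the mean of each round was removed. Their Pearson r with the mean of the others was 0.88, 0.85, 0.83 and 0.83 over 11 libraries, against 0.64 for Kdr, 0.58 for Cldn5 and 0.15 for Slc2a1. Mural genes, each set against the mean of the other mural genes, did not move together (r of 0.18, 0.05 and -0.19 for Pdgfrb, Rgs5 and Vtn). The mean of each genotype was not removed, so the gap between 1b-/- and WT mice enters every r here. A high r is therefore not separate from the changes given above, and this holds for the nearest genes too. The libraries share rounds, and the values are a description. The genes whose pattern was most like the endothelial mean, among 13031 ranked, were 1700021K19Rik, Kctd17, Mafg, Gsk3b and Raly, with r from 0.97 to 0.99. For the mural mean they were Fgf14, Dock3, Arhgap20, Carf and Il17ra, with r of 0.97. Of the 50 nearest genes to each mean, 1 and 0 came from the lists of vascular genes described next, which made up 1.05% of the genes ranked.

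Vascular genes beyond the 10 were read from 11 further lists, with 154 genes in all. In 1b+/- mice 0 of the 148 tested were called and their median log2 fold change was -0.02, with 18 at an unadjusted p under 0.05, near the 11.3% of all genes. In 1b-/- mice 3 of 150 were called lower and 3 higher, or 4.0% against the 3.58% of all genes, at a median of -0.12. For the difference between genotypes 19 were called lower and 18 higher, or 24.7% against 27.1% of all genes.

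Genes of endothelial identity and surface lay the same way as the members. In 1b-/- mice 26 of 30 were lower, at a median of -0.36, and 1 was called, Adgrf5, which encodes an adhesion G protein-coupled receptor. Adgrf5 measured 53.8 and 49.4 CPM in WT and 31.1 and 29.5 in 1b-/- mice, a log2 fold change of -0.77 ± 0.12 (adjusted p 0.0427), and was level in 1b+/- mice (0.01). Against the 1b+/- change, 4 of the 30 were called lower, a share equal to the 13.3% of all genes: Adgrf5, Ptprb (-0.65), the phosphatase that opposes Tek signalling, Itm2a (-0.55) and Lmo2 (-1.06), a partner of blood and endothelial transcription factors. Lmo2 measured 50.7 and 26.5 CPM in WT and 17.6 and 22.3 in 1b-/- mice, and without WT replicate 1 its difference was -0.51. Ramp2, a subunit of the adrenomedullin receptor, was called higher (1.07). In heterozygous-round WT mice Lmo2 averaged 11.5 CPM, nearer to the 1b-/- mean (20) than to the homozygous-round WT mean (38.6). Adgrf5 averaged 43.6 CPM there, nearer to its homozygous-round WT mean (51.6) than to its 1b-/- mean (30.3). The 30 genes had a median of -0.08 in 1b+/- mice, where 20 were lower and none was called.

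Further genes of the VEGF and angiopoietin system, which included ligands, receptors and co-receptors, split in 1b-/- mice, 7 of 15 tested genes being lower and 8 higher. Apln, an endothelial peptide that neurons also make, measured 56.4 and 51.0 CPM in WT and 22.4 and 14.7 in 1b-/- (log2 fold change -1.53, adjusted p 0.0372). Nrp1, a VEGF co-receptor that guides axons too, measured 26.6 and 37.3 against 83.8 and 107.5 (1.58, adjusted p 0.0343). In heterozygous-round WT mice Apln averaged 22.4 CPM and Nrp1 124.5, nearer to the 1b-/- than to the WT means of the homozygous round. Vegfa, the main VEGF ligand, averaged 98.1 CPM in WT and 65.3 in 1b-/- (-0.59, adjusted p 0.0777), and its change was below that in 1b+/- mice (difference -0.59, adjusted p 0.00885). Its mean in heterozygous-round WT mice, 59.5 CPM, was also nearer to the 1b-/- mean.

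Barrier genes were mixed. Of 20 further transporters, 14 were lower and 6 higher in 1b-/- mice and none was called. Against the 1b+/- change 4 of the 20 were called lower, beside 13.3% of all genes, among them the organic anion carrier Slco1a4 (-0.90) and the iron exporter Slc40a1 (-0.86). Called higher were Slc7a5 (0.76) and Slc3a2 (0.55), the subunits of the large neutral amino acid transporter, which neurons use as well. Of 11 tight junction genes 6 were lower and 5 higher in 1b-/- mice, and against the 1b+/- change Tjp1, Jam3 and Pard3 were among those called lower. The call on Tjp1 was lost under 14 of 19 alternatives and that on Pard3 under 13 of 19. Of 13 genes of the Wnt pathway that maintains the barrier, Wnt7b, a ligand from neurons and glia, was called higher (1.41, adjusted p 0.0295), at 64.1 and 53.2 CPM in 1b-/- mice against 19.5 and 24.8. Wnt7b averaged 53 CPM in heterozygous-round WT mice, nearer to the 1b-/- mean (58.7) than to the homozygous-round WT mean (22.1).

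**Figure D3:**
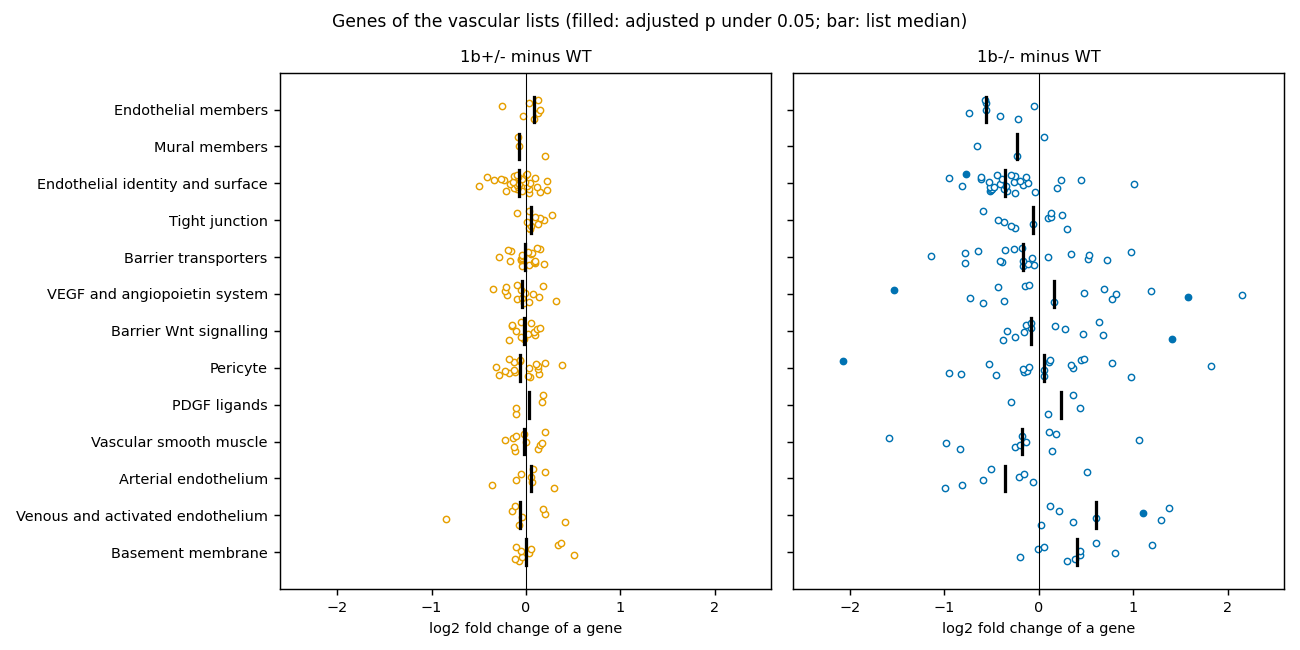
Log2 fold change of each tested gene in the member lists and 11 further vascular lists, in 1b+/- (left) and 1b-/- mice (right); filled points have an adjusted p under 0.05 and bars are list medians. The lists cluster near 0 in 1b+/- mice. In 1b-/- mice the endothelial members (median -0.56) and the identity list (-0.36) lie low and the venous and activated list (0.61) lies high. That median includes Lcn2, which passed the filter only through 1b-/- replicate 1 and lies outside the axis.

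Pericyte and smooth muscle genes did not follow Rgs5 as lists. Of 20 pericyte genes 9 were lower and 11 higher in 1b-/- mice, at a median of 0.06. Abcc9, a potassium channel subunit typical of brain pericytes, averaged 12.1 CPM in WT and 6.80 in 1b-/- libraries (-0.83, adjusted p 0.0684), and its difference from the 1b+/- change was called (-0.99, adjusted p 0.00678). Cspg4, which encodes NG2, a proteoglycan of pericytes and oligodendrocyte precursors, averaged 28.9 and 30.0 CPM. Of 11 smooth muscle genes tested 7 were lower, at a median of -0.18, and none was called (2 at an unadjusted p under 0.05). The ligand Pdgfb averaged 26.4 CPM in WT and 35.7 in 1b-/- libraries (0.44, adjusted p 0.148), and its difference from the 1b+/- change was called higher (0.53, adjusted p 0.0232).

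Venous and activated endothelial genes lay the other way, with 9 of 9 tested higher in 1b-/- mice at a median of 0.61. Of these, Lcn2 passed the filter only through 1b-/- replicate 1, at 6.19 CPM against 0.251 in replicate 2. Its direction was therefore fixed by the filter, and it enters both the count and the median. Vcam1 (0.02) and Tgm2 (0.12) were higher by little. Plvap, which forms the diaphragms of leaky vessels, was the 1 called, at 7.67 and 7.39 CPM in WT against 17.2 and 15.1 (log2 fold change 1.10, adjusted p 0.0427). It is a gene of choroid plexus vessels as well, and the 12 choroid plexus genes were all higher on average (median 1.23, none called). Choroid plexus genes summed to 70.7 CPM in 1b-/- replicate 1 and 14040 in replicate 2, and their part in the Plvap values was not tested. Lcn2 was at or near 0 in the WT libraries and is given no fold. Nr2f2 and Il1r1 averaged 27.7 and 11.4 CPM in 1b-/- mice against 11.3 and 4.38 in WT. In heterozygous-round WT mice they averaged 75.1 and 13.3, nearer to the 1b-/- means, while Plvap averaged 3.83, nearer to the homozygous-round WT mean. Nr2f2 was lower in 1b+/- mice, at 32.9 to 46.1 CPM against 59 to 89 in WT (log2 fold change -0.85, adjusted p 0.0777). Of the arterial genes 7 of 8 were lower (median -0.36, none called) and of the basement membrane genes 8 of 10 higher (median 0.41, none called). Meningeal and perivascular fibroblast genes, 12 of 12 higher with 1 called, summed to 112 and 313 CPM in WT and 320 and 732 in 1b-/- mice.

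**Figure D4:**
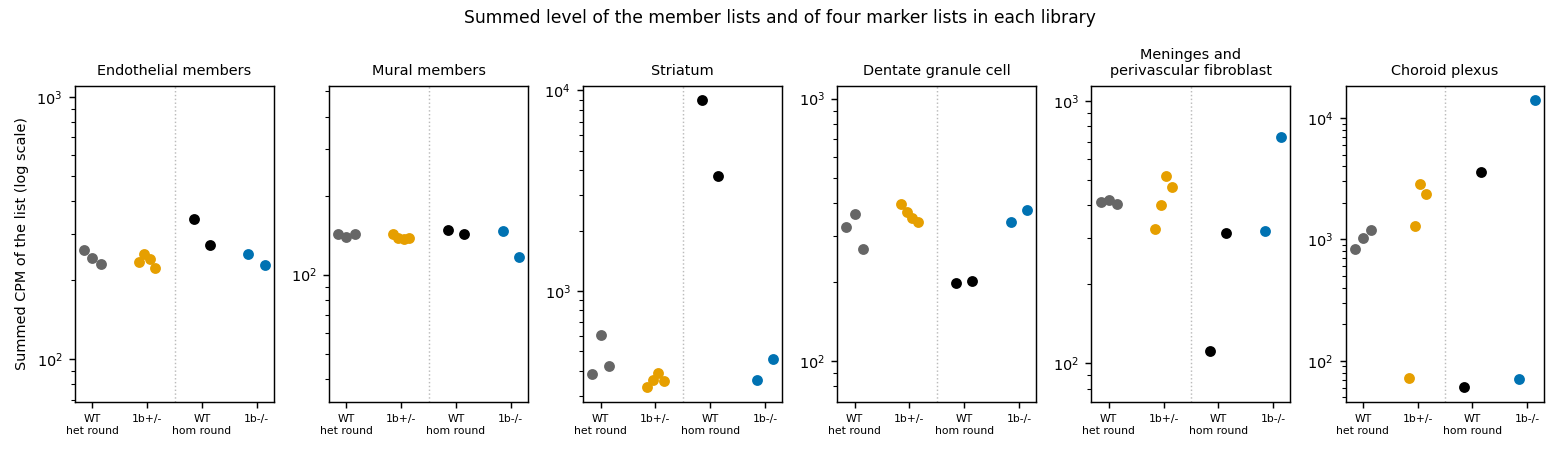
Summed CPM (log scale) of the 7 endothelial and 3 mural genes and of striatal, dentate granule cell, meningeal and choroid plexus marker genes in each library, by group. The WT mice of the homozygous round reach 3735 and 8953 for striatal genes against 458 or less in the 1b-/- mice, and endothelial sums reach 272 and 342 against 229 and 251.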

How the data were processed

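What the authors deposited are unnormalized read counts, one value per gene and library. Reads were aligned to mm9 with STAR 2.7.2 and counted with featureCounts, per the labels and the study's methods. Libraries were stranded, and the strand setting of the counting is not given in the sources used here, which leaves overlapping genes uncertain. A spreadsheet had turned 27 symbols of each table into dates. The submitters' descriptions of the tables are the reverse of their column names, and libraries were assigned to rounds by column name. The labels give the age as adult and the study's methods as postnatal day 32. Exon lengths came from the GENCODE annotation of mm9.

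The analysis used edgeR 4.0.16 (R 4.3.3). A gene was kept where any library of the round reached 1 CPM, TMM factors and dispersions were estimated, and a quasi-likelihood test on genotype alone compared each mutant group with the WT mice of its round. The difference between genotypes was tested in 1 fit of the 11 libraries with 4 groups. Benjamini-Hochberg adjusted p under 0.05 was the threshold. Intervals are 95% from the fitted error. Permutation tests were exact and two-sided. The code was checked on simulated counts.

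The members and lists were chosen with earlier results of these data known. Genes named from lists were those called in a comparison or, as examples, those with the smallest p. Some called list genes are not reported here. Cspg4 and Abcb1b were named after their values were seen. Replicates differed beyond sampling noise in all 11 pairs within groups; the labels do not say how litters were shared, so p-values measure the spread between these mice. Alternatives were the likelihood ratio test, DESeq2 1.42.0, RLE and upper-quartile factors, other filters, sex as a covariate, a fit of all libraries, limma 3.58.1 voom, and leaving out each mouse.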

Additional observations from a re-analysis of the deposited data

Results flagged for a closer look

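For 5 of the 10 genes the change in 1b-/- mice differed from that in 1b+/- mice by an interaction test in edgeR, which is why they are listed here. The difference on the log2 scale was -0.88 for Flt1, -0.73 for Kdr, -0.61 for Abcb1a, -0.72 for Tek and -0.59 for Rgs5. None of the 5 passed the test in either round alone. Each change was taken within its round, but the groups of the homozygous round were not matched for tissue. Striatal genes there summed to 3735 and 8953 CPM in WT mice and to 360 and 458 in 1b-/- mice. Both WT mice were female, the 1b-/- mice 1 male and 1 female. The genotypes were also sequenced in separate rounds with different read types. Genotype, round and the tissue captured therefore cannot be told apart in this difference. No library of the 4 1b+/- mice stood far from the others for any member, and the groups of 2 and 3 were too small for that check.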

How the results depend on the processing

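Calls on the members in 1b+/- mice stayed at 0 under each of 15 alternatives, while calls over all genes reached 191 by the likelihood ratio test, 245 by DESeq2, 44 with no filter and 421 without WT replicate 1. In 1b-/- mice the number of members called was 1 by the likelihood ratio test (Flt1), 2 by DESeq2 (Flt1 and Rgs5) and 1 with no filter (Flt1). It was 6 with all 11 libraries in 1 fit. All genes called then rose to 1829, 2144, 1029 and 5521. Leaving out a mouse of that round left 1 in its group, so the number of calls there cannot decide whether members changed. For the difference between genotypes the number of members called was 3 with sex as a covariate (Flt1, Abcb1a and Rgs5). It was 2 with voom weights per round (Flt1 and Rgs5), which were chosen after seeing the data. Calls over all genes were then 3088 and 1870, against 4041. DESeq2 called 6 members (Pdgfrb added, 4433 genes). With a mouse of the heterozygous round left out the number was 2 to 5, with 2870 to 3692 genes called in all. The median difference of the mural genes was -0.33 with sex as a covariate and -0.50 to -0.37 with a mouse left out, and that of the endothelial genes -0.71 to -0.40. The median endothelial change in 1b-/- mice was -0.60 to -0.33 with a mouse left out. With sex as a covariate Vtn turned to -0.26 in 1b-/- mice and to -0.14 for the difference. With 1 mouse left out, signs turned within these ranges: in 1b+/- mice Pecam1 -0.1089 to 0.0126 (also 0.0004) and Abcb1a -0.033 to 0.14; in 1b-/- mice Cldn5 -0.53 to 0.17, Slc2a1 to 0.13 and Vtn -0.26 to 0.32 (also -0.01); for the difference Cldn5 -0.63 to 0.0726 and Vtn -0.20 to 0.40. The cause was not tested. No member changed direction under RLE or upper-quartile factors. Adgrf5 and Plvap were not called in 1b-/- mice with sex as a covariate (adjusted p 0.0930 and 0.0885) or without any single mouse (adjusted p 0.0755 to 0.154 and 0.0699 to 0.117). Nrp1, Apln and Wnt7b lost their calls there without either WT mouse (adjusted p 0.0609 to 0.122). For the difference, Ptprb, Adgrf5, Vegfa, Abcc9, Tjp1, Jam3 and Pard3 were not called with voom weights per round. No paired analysis was possible because the labels give no replicate numbers. Each member had at least 335 counts in every library.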
